A study of Mus musculus with 28 samples.

Results

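Liver gene expression was compared between mice that ate a high fat diet with both quercetin and resveratrol for 26 weeks (HQR) and mice that ate a standard diet for the same time (SD). The comparison rests on 11 of the 28 arrays of the series, 6 from HQR livers and 5 from SD livers, with 1 array and 1 mouse per liver, chosen by the sample titles. All were male C57/6J mice that were 7 weeks old at the start and 33 weeks old at the end. HQR mice were fed the high fat diet with 0.2% quercetin and 0.2% resveratrol, which is 2 g of each compound per kg of diet. A second high fat group, fed the same diet without the compounds (HFD, 6 livers), is set beside them, and 2 further groups had 0.4% quercetin (HQ, 5 livers) or 0.4% resveratrol (HR, 6 livers) in it. SD mice ate the standard diet with neither compound. HQR and SD mice thus differ in the fat of the diet and in both compounds at once, and what the comparison shows is which genes stayed different from the standard diet while the mixture was eaten. The composition of the diets is not given in the sources used here.

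A liver that takes up more fat than it can burn or export stores it as triglyceride in lipid droplets, some of whose coat proteins are best known from fat cells. It also secretes proteins that act on other organs, and it adjusts the enzymes that handle amino acids, bile acids, retinoids and foreign compounds to what is eaten. Quercetin, a plant flavonol, and resveratrol, a plant stilbene, have been studied widely in rodents as additions to fat-rich diets.

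Expression is given as the log2 of the processed Cy3 signal minus the 75th percentile of the same array, so that 1 unit is a factor of 2 and a level says nothing about how one gene's signal compares with another's. Between 64.3% and 79.7% of the spots were well above background on HQR arrays, against 62.2% to 73.8% on SD arrays, and the 75th percentile of the signal lay between 180 and 559 on HQR arrays, against 258 to 375 on SD arrays. The number of arrays limits the precision. All 14 measured hepatocyte markers, such as Alb (albumin), were well above background on every HQR and every SD array. The arrays were scanned on 4 days. Days 1 and 2 had 1 HQR and 1 SD array each, and day 4 had 4 HQR and 2 SD arrays. SD replicate 3 was scanned on day 3, with no HQR array. HQR arrays lay on 5 and SD arrays on 5 of the 9 slides, and 3 slides (1, 6 and 9) held both, with 4 HQR and 3 SD arrays. Differences are therefore also given from a fit that holds the slide constant (the slide block) and within those slides. Over all genes, the median difference of HQR from SD was -0.10 in that fit and 0.11, -0.07 and -0.17 within slides 1, 6 and 9.

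Of 21848 genes tested with limma on all 28 arrays, 8 differed between HQR and SD livers at an adjusted p under 0.05, which is 0.0366% of the genes. The 3 that rose in HQR livers (0.0137% of the genes) were Cfd, Adam11 and the transcript A430085C19, and the 5 that fell (0.0229%) were Enho, Tff3, Asns, H2-Q1 and Rdh16f2. An unadjusted p under 0.05 was reached by 1405 genes, where 1092 would be expected with no difference at all. In each of the 8 the lowest and highest HQR livers lay wholly on one side of the SD livers, which was so for 175 of all genes tested (0.801%), with 82 higher in HQR livers (0.375%) and 93 lower (0.426%). The split of 3 higher and 5 lower calls was 10 and 7 after quantile normalization, 3 and 6 after scaling to the array median and 2 and 4 after normexp background correction. In the slide block fit the count was 48 (0.22% of those tested), of which 33 were higher (0.151%) and 15 lower (0.0687%), and all 8 were among them. Array weights gave 61 higher and 48 lower. The count was 24 without SD replicate 1 and 6 to 10 when any other HQR or SD array was left out.

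**Figure D1:**
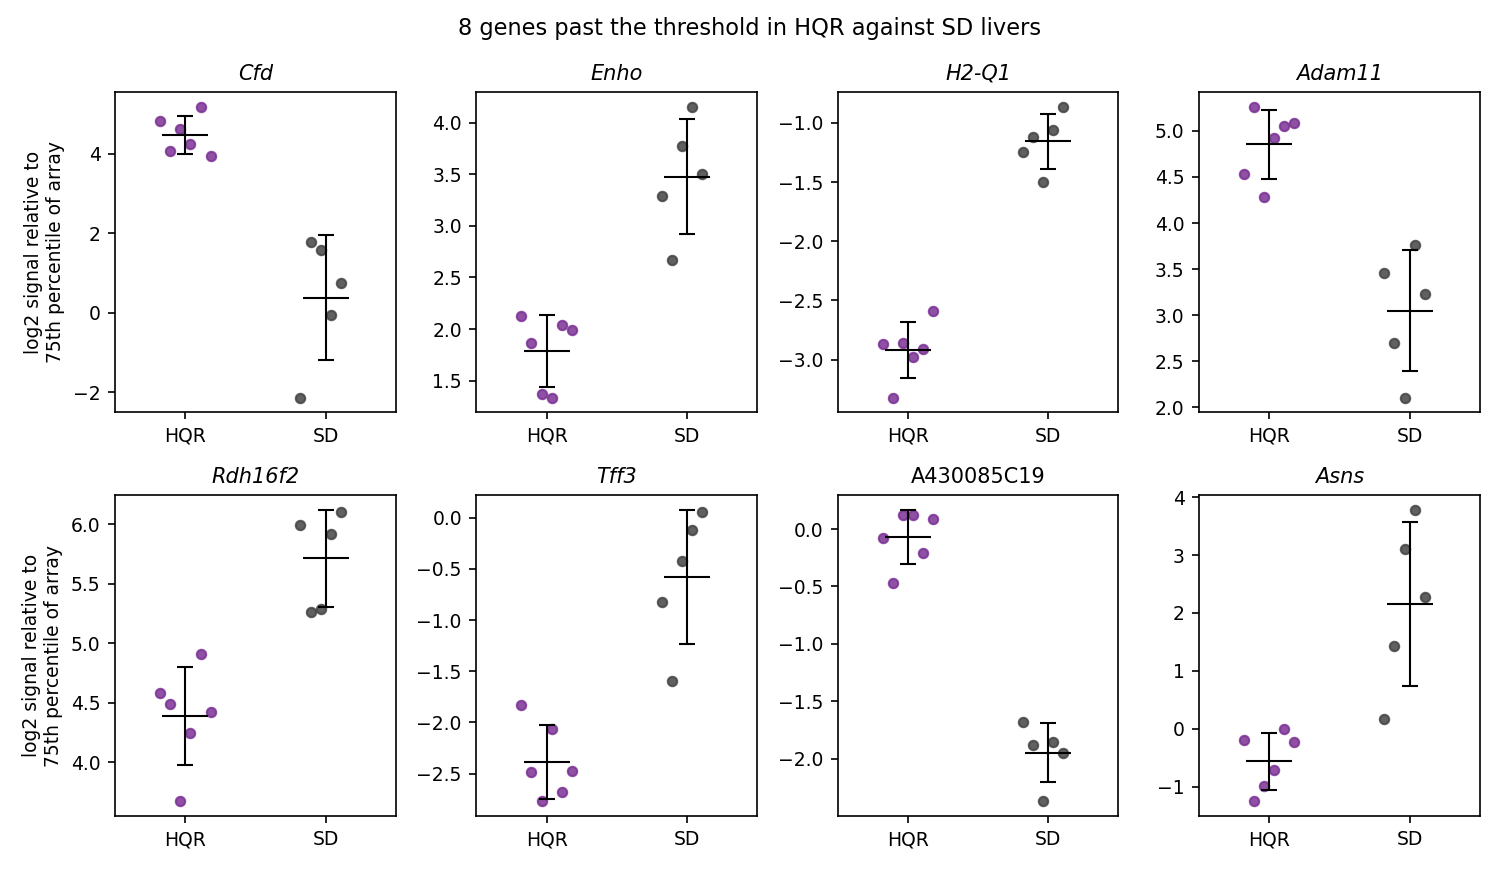
Log2 signal on the scale of the text (vertical axis, a scale of its own for each gene) in the 6 HQR and 5 SD livers for the 8 genes with an adjusted p under 0.05. Points are livers and bars show the mean and SD; no HQR liver lies within the range of the SD livers in any panel, and the smallest gap is that of Asns, between -0.01 in HQR and 0.17 in SD.

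The largest of the 8 differences was that of Cfd, which encodes complement factor D (adipsin), a serine protease that fat cells secrete and that starts the alternative complement pathway by cutting factor B. Its level in HQR livers ranged from 3.96 to 5.19 with a median of 4.44, and in the 5 SD livers it was -2.14, 1.78, 1.57, -0.05 and 0.74. Every HQR liver was above every SD liver, and the SD livers were the more scattered, with replicate 1 lowest. The difference of 4.10 ± 0.58 (SE), a 17.2-fold rise, had an adjusted p of 0.00287 in limma. It was 6.96, 4.68 and 3.83 within slides 1, 6 and 9 and 4.65 in the slide block fit (adjusted p = 8.14e-05). The probe lies at chr10:79355302-79355361 (build mm9, as are all probe positions below). A second, unnamed probe, NAP025923-1, lies 177 bases from it at chr10:79354900-79355125. It had 0.27 to 1.88 with a median of 0.68 in HQR livers and -3.95, -0.81, -0.86, -2.54 and -1.62 in SD livers, so that these groups did not overlap either. Its difference of 2.85 ± 0.59 missed the threshold (adjusted p = 0.0597) and passed it in the slide block fit (3.48, adjusted p = 0.000685).

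The other genes of the alternative complement pathway did not pass: of 19 measured members, Cfd rose, none fell, and 18 did not pass, and the median difference of the list was -0.04 against 0.01 over all genes. C3, the central component, differed by -0.17 and Cfb, the protein that factor D cuts, by -0.28. Markers of fat cells were also read, because Cfd is one of them. Of 10 measured adipocyte markers, Cfd rose and 9 did not pass, with a median difference of -0.16 over those 9. The mean level of those 9 lay between 0.44 and 1.19 in HQR livers and between 0.30 and 1.25 in SD livers. Of the 10, 5 lay above 0 and 5 below, and their median was 0.47, 0.34 and -0.34 within slides 1, 6 and 9. Adipoq, which encodes the fat cell hormone adiponectin, differed by -0.92 (adjusted p = 0.929), Plin1 by -0.16 and Fabp4 by 0.03, while the probe of Lep (leptin) was not well above background on any array. In a whole liver sample, more cells of a type and more RNA per cell cannot be told apart.

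Enho encodes adropin, a small peptide that the liver and brain release and that is linked to the use of sugar and fat as fuels. It ranged from 1.34 to 2.13 (median 1.93) in HQR livers and was 3.29, 2.67, 3.77, 4.16 and 3.51 in SD livers, with no overlap. The difference was -1.69 ± 0.25, a 3.23-fold lower signal in HQR livers (adjusted p = 0.00287), with -1.16, -2.79 and -1.49 within the 3 shared slides and -1.60 as a block (adjusted p = 0.0144). The probe lies at chr4:41585257-41585316. Among 26 measured hepatokines, as proteins secreted by the liver to act elsewhere are called, Enho fell and the other 25 did not pass. The median of the list was -0.45 and 22 members lay below 0, against 48.8% of all genes. With slide as a block the median was -0.27, and within the slides it was -0.22, -0.34 and -0.36.

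Tff3, trefoil factor 3, is a secreted peptide that protects mucous surfaces and is made in the liver by bile duct cells and hepatocytes. HQR livers had -2.77 to -1.83 (median -2.48) and SD livers -0.82, -1.59, -0.42, -0.12 and 0.06. The highest HQR liver was just under the lowest SD liver, replicate 2. The difference was -1.80 ± 0.30, 3.49-fold lower in HQR livers (adjusted p = 0.00835), and -2.13 in the slide block fit (adjusted p = 0.000685). The call was lost without SD replicate 4 (adjusted p = 0.0538) or SD replicate 5 (0.0506). The probe lies at chr17:31262279-31262338. Of 11 measured bile duct cell markers, Tff3 was the one that fell and 10 did not pass, with a median of 0.10. The mean level of those 10 lay between -0.08 and 0.78 in HQR livers and between -0.31 and 0.55 in SD livers. The keratins Krt7 and Krt19, which mark bile ducts, each differed by 0.21 and Epcam by -0.06.

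Asns encodes asparagine synthetase, which makes asparagine from aspartate and glutamine and is switched on by the transcription factor ATF4 when amino acids are short. It ranged from -1.25 to -0.01 (median -0.47) in HQR livers and was 0.17, 1.43, 3.11, 3.78 and 2.27 in SD livers. SD replicate 1 was almost as low as the highest HQR liver, and the other SD livers were well above. The difference was -2.71 ± 0.52, 6.56-fold lower in HQR livers, with an adjusted p of 0.0486 that only just passed. It was -0.36, -4.76 and -2.39 within slides 1, 6 and 9, and -2.74 in the slide block fit (adjusted p = 0.0458). Leaving out any HQR array, or SD replicate 3, 4 or 5, ended the call, at adjusted p values of 0.0578 to 0.137, and it held without SD replicate 1 or 2. The direction was the same in every alternative, though fits without single arrays could not have turned it, as the groups do not overlap. The probe lies at chr6:7625194-7625253.

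Of the 31 measured genes of the amino acid and ATF4 stress response, Asns fell, none rose and 30 did not pass. The median was -0.30, and 23 of the 31 lay below 0, against 48.8% of all genes. Within slides 1, 6 and 9 the median was -0.29, 0.10 and -0.32, with 13 members below 0 within slide 6. Slc1a5, a carrier that takes up glutamine, had 0.38 to 1.42 (median 0.94) in HQR livers against 1.73, 1.79, 1.89, 1.59 and 1.99 in SD livers. These groups did not overlap, but the difference of -0.84 ± 0.21 did not pass (adjusted p = 0.151). Atf5, a relative of ATF4, differed by -1.07 (adjusted p = 0.215). Fgf21, a hormone of the fasting and amino acid responses, differed by -2.79 ± 0.83 (adjusted p = 0.323). It lay between -2.78 and -1.41 in 5 HQR livers and at 1.46 in HQR replicate 3, against -0.67, 2.81, 3.41, 0.54 and -0.01 in SD livers. Trib3, a pseudokinase that curbs ATF4, differed by -0.76 (adjusted p = 0.899), and Chac1, which degrades glutathione, by 1.43 in the other direction (adjusted p = 0.399). ATF4 and its partners of the C/EBP family bind an amino acid response element that was searched for as TGATGNAAN on both strands, with overlapping matches counted. RefSeq promoters of 300 bases across the start, mostly upstream of it, were used (build GRCm38.p6). Of 25 list members with such a promoter, 10 hold the element, against 4.04% of all 27025 promoters. Because the list gathers genes of the ATF4 response, a high share is built into it and says nothing about HQR against SD livers. The promoters of 4 of these genes are shown 5′ to 3′ with the match in capitals, Asns as the one that fell, Fgf21 and Trib3 as members that lay lower in HQR livers, and Chac1 as one that lay higher.
Asns promoter: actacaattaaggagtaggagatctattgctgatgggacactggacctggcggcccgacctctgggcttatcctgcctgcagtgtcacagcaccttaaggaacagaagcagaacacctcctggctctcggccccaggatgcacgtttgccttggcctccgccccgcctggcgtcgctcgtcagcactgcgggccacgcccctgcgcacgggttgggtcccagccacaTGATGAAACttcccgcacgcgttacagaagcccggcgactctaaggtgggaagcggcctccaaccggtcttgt
Fgf21 promoter: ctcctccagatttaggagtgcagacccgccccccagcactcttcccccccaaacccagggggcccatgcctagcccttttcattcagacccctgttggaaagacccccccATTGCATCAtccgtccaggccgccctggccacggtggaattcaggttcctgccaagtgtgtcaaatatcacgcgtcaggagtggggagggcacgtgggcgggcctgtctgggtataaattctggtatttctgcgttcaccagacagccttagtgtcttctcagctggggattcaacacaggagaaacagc
Trib3 promoter: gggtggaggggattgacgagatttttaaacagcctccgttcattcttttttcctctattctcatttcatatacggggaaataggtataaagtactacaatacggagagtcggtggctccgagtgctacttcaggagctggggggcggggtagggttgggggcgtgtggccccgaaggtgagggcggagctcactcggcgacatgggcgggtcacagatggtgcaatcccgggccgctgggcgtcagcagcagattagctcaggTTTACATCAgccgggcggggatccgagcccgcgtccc
Chac1 promoter: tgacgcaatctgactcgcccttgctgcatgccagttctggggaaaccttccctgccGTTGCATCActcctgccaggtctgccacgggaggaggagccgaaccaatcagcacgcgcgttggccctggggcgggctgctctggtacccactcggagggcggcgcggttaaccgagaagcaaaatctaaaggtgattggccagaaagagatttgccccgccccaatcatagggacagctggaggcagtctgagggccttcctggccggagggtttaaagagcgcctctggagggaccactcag
The Asns promoter (chr6:7693160-7693459, minus strand) has its match on the sense strand at position -23, counted from the start of the transcript as 0. Those of Fgf21 (chr7:45615441-45615740, minus strand), Trib3 (chr2:152344011-152344310, minus strand) and Chac1 (chr2:119350992-119351291, plus strand) begin at -140, 13 and -194 and read on the antisense strand. A match is a description of the sequence: genes that hold one lay on both sides of 0, and binding was not measured.

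Rdh16f2 belongs to the short-chain dehydrogenases that oxidise retinol and steroids in mouse liver. Its level was 3.67 to 4.91 (median 4.46) in HQR livers and 6.00, 5.26, 5.28, 5.92 and 6.10 in SD livers, with no overlap. The difference was -1.32 ± 0.22, 2.5-fold lower in HQR livers (adjusted p = 0.00795), with -1.41, -2.24 and -1.43 within the slides and -1.39 as a block (adjusted p = 0.0178). The probe lies at chr10:127314281-127314340. It was not a member of the retinoid list, of whose 28 measured genes none passed (median -0.11). Cyp26a1, the enzyme that clears retinoic acid, was at 1.17 to 4.64 (median 2.87) in HQR livers and at 0.63, -2.37, -1.62, -0.70 and -0.66 in SD livers. The groups did not overlap, and the difference of 3.69 ± 0.85 had an adjusted p of 0.104. Rbp4, which carries retinol in blood, differed by -0.62 (adjusted p = 0.418), the retinol dehydrogenase Rdh11 by -0.91 (adjusted p = 0.42) and Lrat, the enzyme that stores retinol as esters in stellate cells, by 0.82 (adjusted p = 0.519).

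H2-Q1 is a non-classical class I gene of the mouse major histocompatibility complex. HQR livers had -3.32 to -2.59 (median -2.89) and SD livers -1.25, -1.12, -1.50, -1.06 and -0.86, and the spread within each group was small beside the gap. The difference was -1.76 ± 0.28, 3.4-fold lower in HQR livers (adjusted p = 0.00609). It was -1.62, -1.80 and -1.89 within the slides and -1.68 as a block (adjusted p = 0.0157). The probe lies at chr17:35461951-35462010, in a family of near-identical genes, so that cross-hybridisation with its relatives was not tested. Of 20 measured genes of class I antigen presentation, H2-Q1 fell and 19 did not pass (median -0.11). The classical genes H2-K1 and H2-D1 differed by -0.18 and -0.11, the neighbouring H2-Q2 by 0.07 and the shared light chain B2m by 0.05. After normexp background correction, which bears most on dim probes, the difference of H2-Q1 was -1.03 and no longer passed (adjusted p = 0.57).

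Adam11 encodes a membrane protein of the ADAM family that lacks an active protease site and is best known from neurons. It was at 4.28 to 5.26 (median 4.98) in HQR livers and 3.46, 2.70, 2.11, 3.76 and 3.23 in SD livers. The groups did not overlap. The rise of 1.81 ± 0.29, or 3.5-fold, had an adjusted p of 0.00609 and was 1.75 in the slide block fit (adjusted p = 0.0355). Within slides 1, 6 and 9 it was 1.08, 0.53 and 1.84. All 3 kept Adam11 probes gave like differences, between 1.69 and 1.98. The probe used lies at chr11:102641316-102641375.

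A430085C19 is an unclassified full-length cDNA on chromosome 18, named here as in the array files, with no known function. It had -0.47 to 0.13 (median 0.01) in HQR livers and -1.68, -1.89, -2.37, -1.85 and -1.95 in SD livers. The 6 HQR livers formed a tight group above the SD livers. The rise of 1.88 ± 0.32, or 3.68-fold, had an adjusted p of 0.00935. Its value was nearly the same within slides 1, 6 and 9 (1.61, 1.97 and 1.89) and as a block (1.97, adjusted p = 0.000685), and it did not pass without SD replicate 3 (adjusted p = 0.064).

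**Figure D2:**
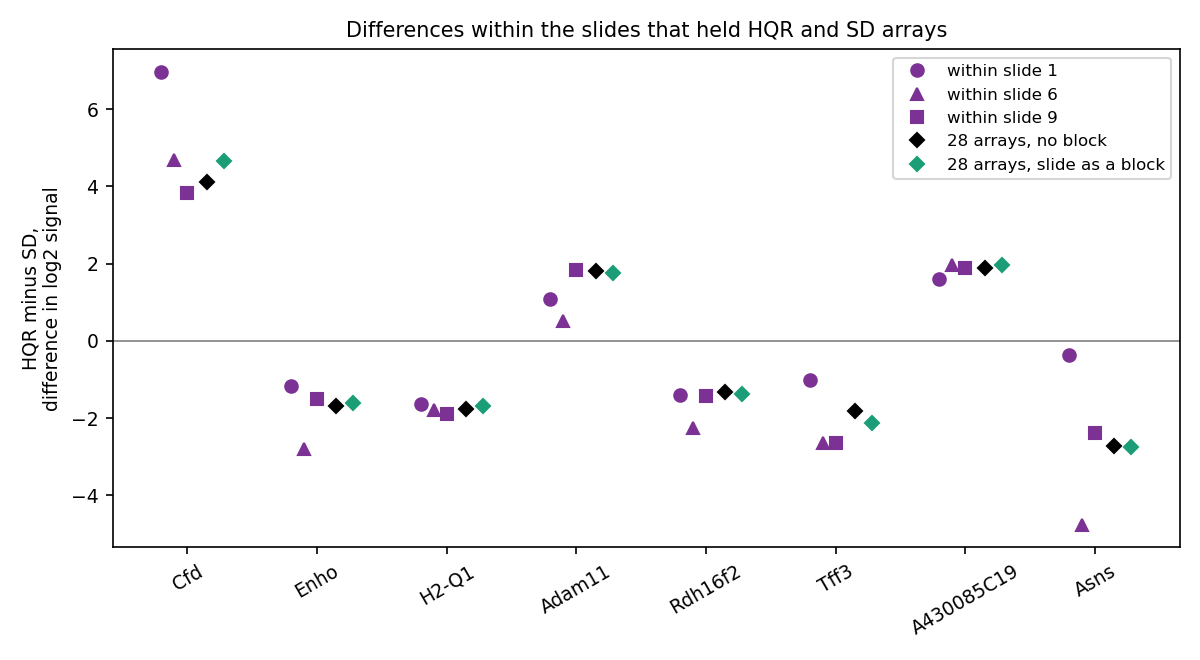
Difference in log2 signal between HQR and SD livers (vertical axis) for the 8 genes within slides 1, 6 and 9, the slides that held arrays of both groups, beside the difference over all 28 arrays without a block and in the slide block fit. All within-slide values have the sign of the overall difference. They could not have had the other sign, because the HQR and SD livers do not overlap in these genes. Each value rests on 1 SD array and 1 or 2 HQR arrays. The value nearest 0 is that of Asns within slide 1, at -0.36.

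Just outside the threshold were Drc7 and the cDNA AK080781, both with an adjusted p of 0.0518. Drc7, a part of the regulatory complex of motile cilia, differed by 1.20 ± 0.23, with -1.77 to -0.75 (median -1.0) in HQR livers and -2.13, -1.64, -2.43, -2.77 and -2.40 in SD livers. HQR replicate 5 was below the highest SD liver, so that these groups overlapped. AK080781 differed by 2.85 ± 0.56, with 1.44 to 3.87 (median 3.01) in HQR livers and 0.74, 0.09, 0.26, -0.82 and 0.02 in SD livers, without overlap. Its probe at chr8:130893630-130893689 lies 9562 bases from the probe of Nrp1, a co-receptor for vascular growth factors and semaphorins. Nrp1 itself differed by 1.56 (adjusted p = 0.31).

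With slide as a block, 40 further genes passed, 30 of them higher in HQR livers and 10 lower. Phlda1, a protein with a pleckstrin homology-like domain that is induced by growth signals, was among those with the smallest p values. It was at 7.53 to 8.75 (median 8.22) in HQR livers and 5.98, 5.44, 5.07, 5.38 and 5.98 in SD livers, which did not overlap. Its difference of 2.59 ± 0.52 had an adjusted p of 0.0561 without a block and 0.000685 with it. AK080781 (3.26, adjusted p = 0.000685), Nrp1 (1.84, adjusted p = 0.00337) and Drc7 (1.21, adjusted p = 0.0415) passed in that fit. So did Lgi4, a secreted protein of Schwann cells, at -1.54 (adjusted p = 0.000685), although its second probe differed by 0.01. Trf, the iron carrier transferrin, differed by -0.92 (adjusted p = 0.0248). The difference was 3.48 for Cish, an inhibitor that growth hormone induces through STAT5 (adjusted p = 0.0157). Without the block Cish differed by 2.82 (adjusted p = 0.477), with HQR replicate 2 at 0.30 and the other 5 HQR livers between 4.61 and 6.08. SD replicate 5 was at 3.44, the other 4 SD livers between 0.88 and 1.61.

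The HFD livers served to place these differences. Against the same 5 SD livers, HFD livers differed in 25 genes (0.114% of those tested), 15 higher (0.0687%) and 10 lower (0.0458%). The comparisons share their SD arrays, so that their values are given side by side and the test of HQR against HFD is the one that speaks to a difference between them. Of the 25 genes, 6 also passed in HQR livers, namely Cfd, Enho, Tff3, Asns, H2-Q1 and Adam11, and 19 did not. Between HQR and HFD livers themselves no gene passed in limma (0% of those tested). Only 297 genes had an unadjusted p under 0.05, fewer than the 1092 expected with no difference at all. Alternatives called 0 to 9 genes, most often Hao2, Cyp2b13 or the Cyp2b10 transcript, and all 3 of these under scaling to the array median, quantile normalization, array weights and the deposited value table.

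For 5 of the 6 shared genes the HQR and HFD livers lay close together. The difference of HQR from HFD was -0.05 for Enho (95% interval -0.53 to 0.43), 0.12 for Tff3 (-0.47 to 0.71), 0.44 for Asns (-0.58 to 1.46), -0.15 for H2-Q1 (-0.69 to 0.40) and 0.27 for Adam11 (-0.29 to 0.84). These intervals do not show the groups to be equal, and that of Asns reaches past a factor of 2. For Cfd the difference was -1.35, with an interval of -2.48 to -0.22 and an adjusted p of 0.987, while HFD livers ranged from 5.50 to 6.37. Rdh16f2 and A430085C19 passed in HQR and not in HFD livers, where they differed from SD livers by -0.94 (adjusted p = 0.0941) and 1.34 (adjusted p = 0.108). HQR minus HFD was -0.38 for Rdh16f2 (-0.81 to 0.04) and 0.54 for A430085C19 (-0.09 to 1.16), neither past the threshold (both adjusted p = 0.987). In the groups fed 0.4% of a single compound, doses not matched to the mixture, 3 of the 8 genes passed against SD with quercetin (Cfd, Enho and H2-Q1). With resveratrol 5 passed (those 3, Tff3 and A430085C19). Of all genes, 0.0366% passed with quercetin and 0.0549% with resveratrol. The 8 genes were picked by their difference from the same SD arrays, so these counts are not independent of that choice and not comparable with those shares.

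**Figure D3:**
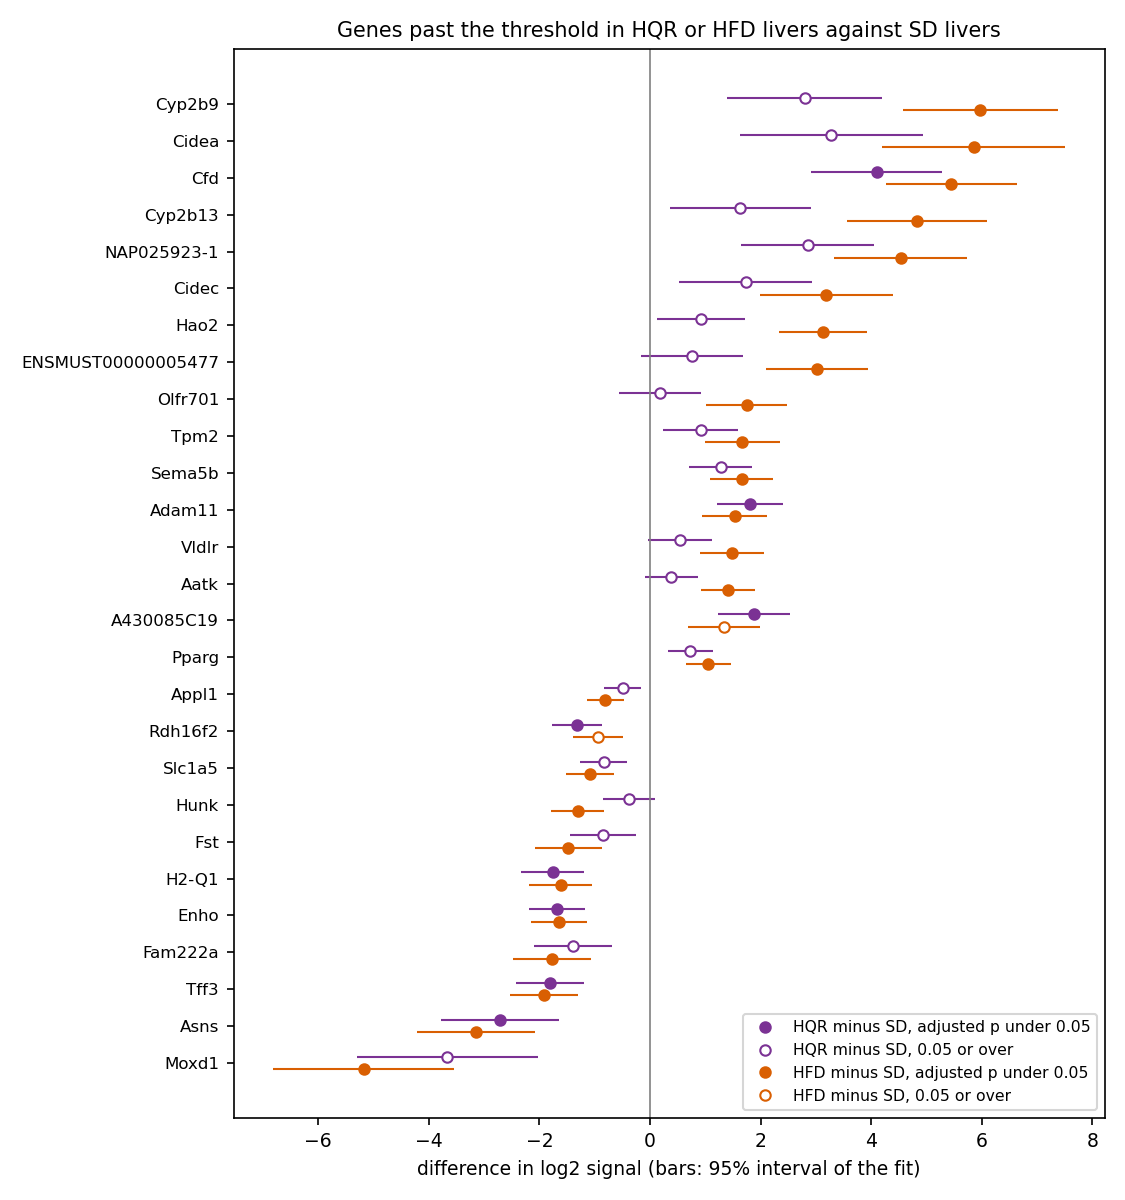
Differences in log2 signal (horizontal axis) of HQR from SD livers and of HFD from SD livers for the 27 genes with an adjusted p under 0.05 in either, with 95% intervals from the fit; filled points passed and open points did not. All 25 genes called in HFD livers have the same sign in HQR livers, with the same SD arrays in both, and the 3 Cyp2b probes, Cidea and Hao2 lie furthest from their HFD values.

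The 19 genes that passed in HFD and not in HQR livers include some of lipid droplets. Cidea, a protein that lets small lipid droplets merge into large ones in fat cells, was at 0.71 to 3.73 (median 2.12) in HQR livers, 3.62 to 6.69 (median 4.65) in HFD livers and -2.50, 0.57, 0.51, -2.42 and -1.49 in SD livers. Every HQR liver was above every SD liver. The HQR difference from SD was 3.28 ± 0.80 (adjusted p = 0.142), against 5.86 for HFD, and it passed in the slide block fit (3.80, adjusted p = 0.0357). HQR minus HFD was -2.57, with an interval of -4.15 to -1.0 and an adjusted p of 0.987. Cidec, its relative with the same role, differed from SD by 1.73 in HQR (adjusted p = 0.442) and by 3.19 in HFD livers. Pparg, the receptor that drives fat storage genes, was at 1.95 to 3.00 (median 2.75) in HQR livers and 1.60, 2.13, 1.72, 2.26 and 1.77 in SD livers, which overlapped. Its difference was 0.73 ± 0.20 in HQR (adjusted p = 0.221, and 0.86 with an adjusted p of 0.0245 in the slide block fit), against 1.05 in HFD livers. Vldlr, which takes up triglyceride-rich particles, differed from SD by 0.54 in HQR and by 1.48 in HFD livers.

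Of 25 measured lipid droplet genes and PPARgamma targets none passed in HQR livers, with a median difference of 0.12 against 0.01 over all genes. The coat protein Plin2 differed by -0.34 (adjusted p = 1.00), the acyltransferase Mogat1 by 0.67 (adjusted p = 0.688), the fatty acid transporter Cd36 by 1.04 (adjusted p = 0.816) and the lipase activator Abhd5 by 1.13 (adjusted p = 0.671). Of 25 genes of lipogenesis none passed either (median -0.19, -0.32 in the slide block fit and 0.15 within slide 9). Srebf1, the regulator of that pathway, differed by 1.19 (adjusted p = 0.782) and Me1, which supplies NADPH to it, by 0.57 (adjusted p = 0.733).

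The Cyp2b genes, whose products oxidise drugs and steroids and some of which the nuclear receptor CAR switches on, stood apart in HFD livers. Cyp2b9 was listed both among drug metabolism genes and among female-biased liver genes. Cyp2b9 was at -0.66 to 1.75 (median 0.43) in HQR livers, 3.28 to 4.15 (median 3.71) in HFD livers and -3.33, -1.49, -2.01, -0.58 and -3.87 in SD livers. HQR livers were below every HFD liver and overlapped with SD livers in 1 value, SD replicate 4 at -0.58 against the lowest HQR liver. The HQR difference from SD was 2.80 ± 0.68 (adjusted p = 0.142) against 5.97 for HFD, and HQR minus HFD was -3.17 (-4.51 to -1.83, adjusted p = 0.168). Its second probe differed from SD by 0.69 in HQR livers. Cyp2b13 was at -2.66 to -0.35 (median -1.81) in HQR livers, 1.22 to 2.32 (median 1.51) in HFD livers and -4.43, -2.96, -3.60, -1.68 and -3.36 in SD livers. Its difference from SD was 1.63 in HQR (adjusted p = 0.536) and 4.83 in HFD livers, and HQR minus HFD was -3.19 (-4.40 to -1.98, adjusted p = 0.109). Another probe of the family, described in the array files as Cyp2b10 (ENSMUST00000005477), differed from SD by 0.75 in HQR and by 3.02 in HFD livers, with HQR minus HFD at -2.27 (-3.15 to -1.39, adjusted p = 0.109). It was well above background on 5 of 6 HQR, all 6 HFD and 2 of 5 SD arrays, so that its differences from SD are uncertain in size. The probe named Cyp2b10 itself was well above background on 1 of 6 HQR, all 6 HFD and 1 of 5 SD arrays. It lay at -6.97 to -3.95 in HQR livers, -4.82 to -2.45 in HFD livers and -5.28 to -3.31 in SD livers, which all overlapped, and did not pass in HQR against SD (adjusted p = 0.958). The family's sequences are alike, and how far the probes share signal was not tested.

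Hao2, a peroxisomal oxidase of hydroxy acids that female livers express more than male ones in mice, gave the smallest p of HQR against HFD (adjusted p = 0.0593). It was well above background on 1 of 6 HQR arrays, on all 6 HFD arrays and on none of the SD arrays, so that the fitted difference of HQR from HFD (-2.20) rests on HQR signals mostly at background and no fold is given between HQR and SD livers. It lay between -5.85 and -5.44 in 5 HQR livers and at -3.50 in HQR replicate 4, between -4.03 and -2.37 in HFD livers and between -6.33 and -5.88 in SD livers. HFD livers were at least 2.12-fold above SD livers (adjusted p = 0.000104 in the fit), the bound being set by the lowest signal well above background on each SD array. Without HQR replicate 4, an alternative chosen after seeing the data, 4 genes passed between HQR and HFD livers in place of 0. HQR minus HFD was then -2.57 for ENSMUST00000005477 (adjusted p = 0.0176) and -3.44 for Cyp2b13 (adjusted p = 0.0375). Hao2 passed as well (adjusted p = 0.000529), with no HQR array left that was well above background. The remaining one was Slc35f1, a member of a family of nucleotide sugar carriers, at 4.33.

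**Figure D4:**
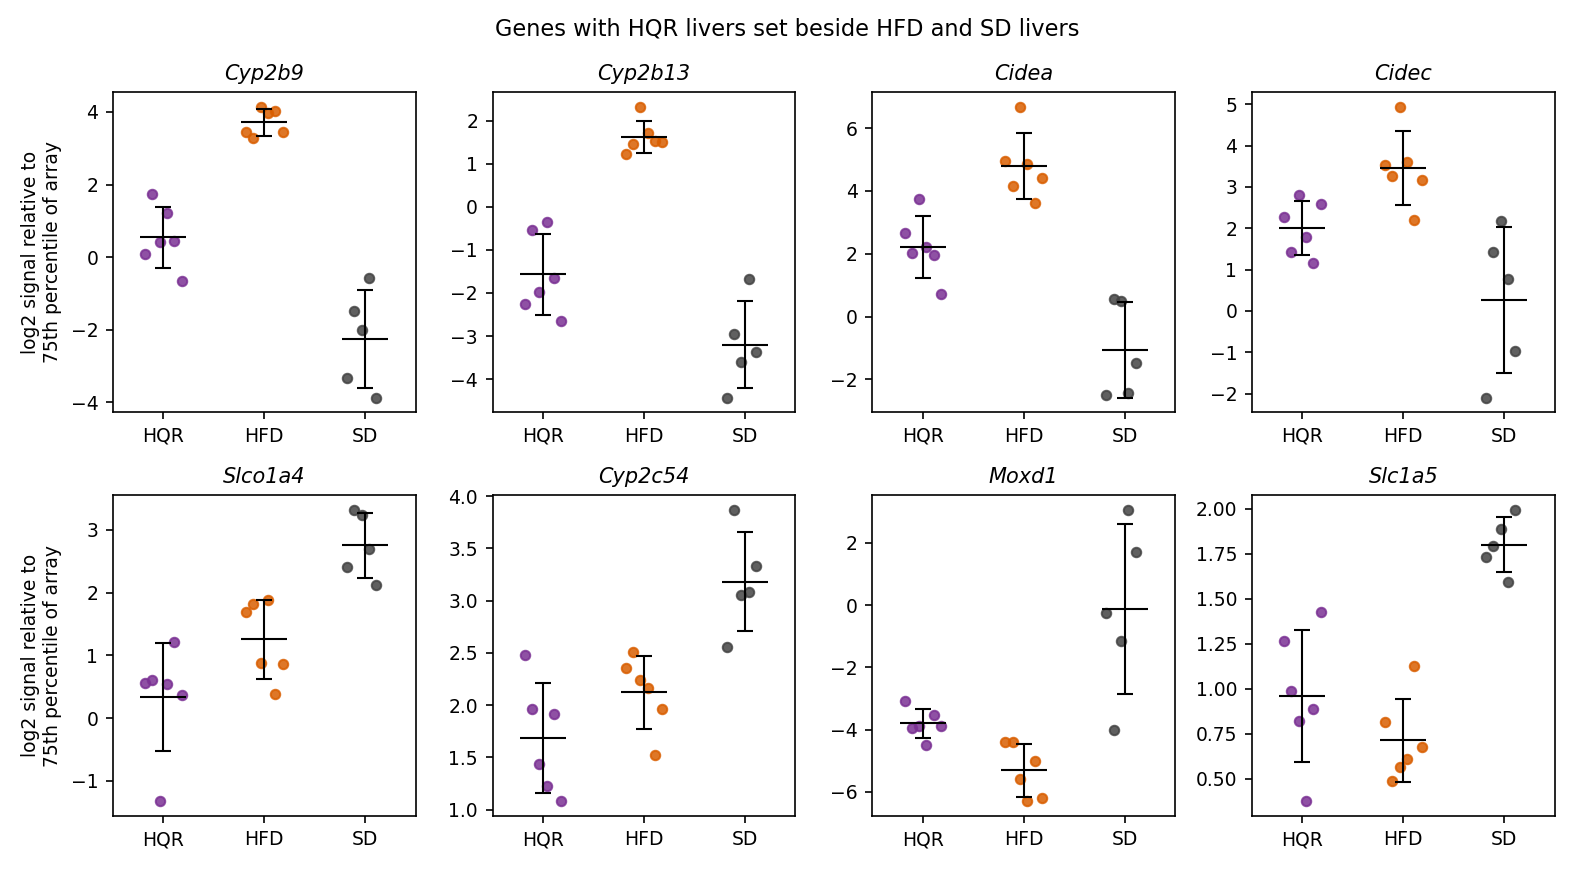
Log2 signal on the scale of the text (vertical axis) in HQR, HFD and SD livers (6, 6 and 5). Shown are genes of the Cyp2b family, lipid droplets, transport and amino acid uptake, the P450 Cyp2c54 and the monooxygenase Moxd1. Points are livers and bars the mean and SD. For Cyp2b9 and Cyp2b13 all HQR livers lie below all HFD livers. For Slc1a5, Slco1a4 and Cyp2c54 all HQR livers lie below all SD livers.

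Moxd1, a monooxygenase of unknown substrate, was at -4.50 to -3.08 (median -3.88) in HQR livers and scattered in SD livers, at -0.26, -4.03, -1.16, 3.06 and 1.70. The groups overlapped through SD replicate 2. Its difference of -3.67 ± 0.80 did not pass (adjusted p = 0.0707). HFD livers were lower still, at -6.30 to -4.39, but well above background on 1 of 6 arrays, so that the size of their difference is not given. Sema5b, a semaphorin that guides axons, differed by 1.28 in HQR (adjusted p = 0.0707) and by 1.66 in HFD livers without overlap between HQR and SD, though its other probes went as low as 0.18. Fam222a differed from SD by -1.39 in HQR and -1.77 in HFD livers, Tpm2, a tropomyosin, by 0.91 in HQR and 1.67 in HFD livers, and Fst, the activin antagonist follistatin, by -0.85 in HQR and -1.48 in HFD livers. Appl1, an adaptor of adiponectin signalling, differed by -0.50 in HQR and -0.81 in HFD livers, but its second probe showed no such shift in HQR livers (-0.0041). Values nearest 0 in HQR livers were those of the kinase Aatk (0.39, against 1.41 in HFD livers), the kinase Hunk (-0.38, against -1.31) and the olfactory receptor gene Olfr701 (0.18, against 1.75).

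No gene of bile acid handling passed, and Slco1a4 came nearest the threshold. Slco1a4, a carrier of bile acids and drugs into hepatocytes, was at 0.37 to 1.22 in 5 HQR livers and at -1.32 in HQR replicate 3, against 2.40, 3.31, 3.24, 2.70 and 2.12 in SD livers. The groups did not overlap, and the difference of -2.42 ± 0.50 had an adjusted p of 0.0597. Cyp8b1, which sets the share of cholic acid, differed by -1.55 (adjusted p = 0.139), Baat, which joins bile acids to taurine or glycine, by -0.69 without overlap (adjusted p = 0.17) and Cyp7a1, which starts the classic route of bile acid formation, by -1.17 (adjusted p = 0.802). Cyp39a1, which hydroxylates an oxysterol on the way to bile acids, was not well above background on any HQR array and was on all 5 SD arrays, at least 1.93-fold lower in HQR livers (adjusted p = 0.11). None of 23 measured genes of this list passed, 16 lay below 0 and the median was -0.22. Of 25 genes of cholesterol synthesis and uptake none passed, with a median of -0.22, -0.37 in the slide block fit and -1.30 within slide 1. Sqle, squalene epoxidase, differed by -1.24 (adjusted p = 0.418) and Hsd17b7 by -0.70 (adjusted p = 0.482).

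Lists of genes that hepatocytes express strongly lay mostly below 0, with no member past the threshold apart from those named. None of 42 measured cytosolic ribosomal protein genes passed, and 41 lay below 0, with a median of -0.23. The median was -0.09 with 34 below 0 after quantile normalization, -0.30 after scaling to the array median, -0.19 in the slide block fit and 0.01, -0.21 and -0.13 within slides 1, 6 and 9. Of 24 genes of the urea cycle and of glutamine zonation, which divide ammonia disposal between the portal and central ends of the lobule, 22 lay below 0 with a median of -0.49, or -0.46 in the slide block fit and -0.39, -1.09 and -0.27 within the slides. Asl, which releases arginine in the urea cycle, differed by -1.53 (adjusted p = 0.169), the central zone's transcription factor Tbx3 by -1.15 (adjusted p = 0.194), the glutamate carrier Slc1a2 by -0.87 (adjusted p = 0.38) and Glul, which makes glutamine, by -0.67 (adjusted p = 0.38). Of 23 lipoprotein genes, 20 lay below 0 with a median of -0.38, or -0.17 in the slide block fit. Apom, a carrier of sphingosine phosphate in HDL, differed by -0.86 without overlap (adjusted p = 0.215), Apoa4 by -1.54 (adjusted p = 0.399), and Mttp, which loads lipid onto nascent particles, by -0.69 (adjusted p = 0.445). The 14 hepatocyte markers had a median of -0.38 (-0.23 after quantile normalization and in the slide block fit) and a mean level of 4.65 to 5.31 in HQR livers, against 4.98 to 5.98 in SD livers, and the part of hepatocyte RNA content in the other lists was not tested. Beside these, the median of all genes was 0.01, -0.06 after scaling to the array median or normexp correction, and -0.10 in the slide block fit. In that fit 13934 of the 21848 genes lay below 0. Within slides 1, 6 and 9 the median of all genes was 0.11, -0.07 and -0.17. The ribosomal median lay below it within slides 1 and 6 and above it within slide 9.

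**Figure D5:**
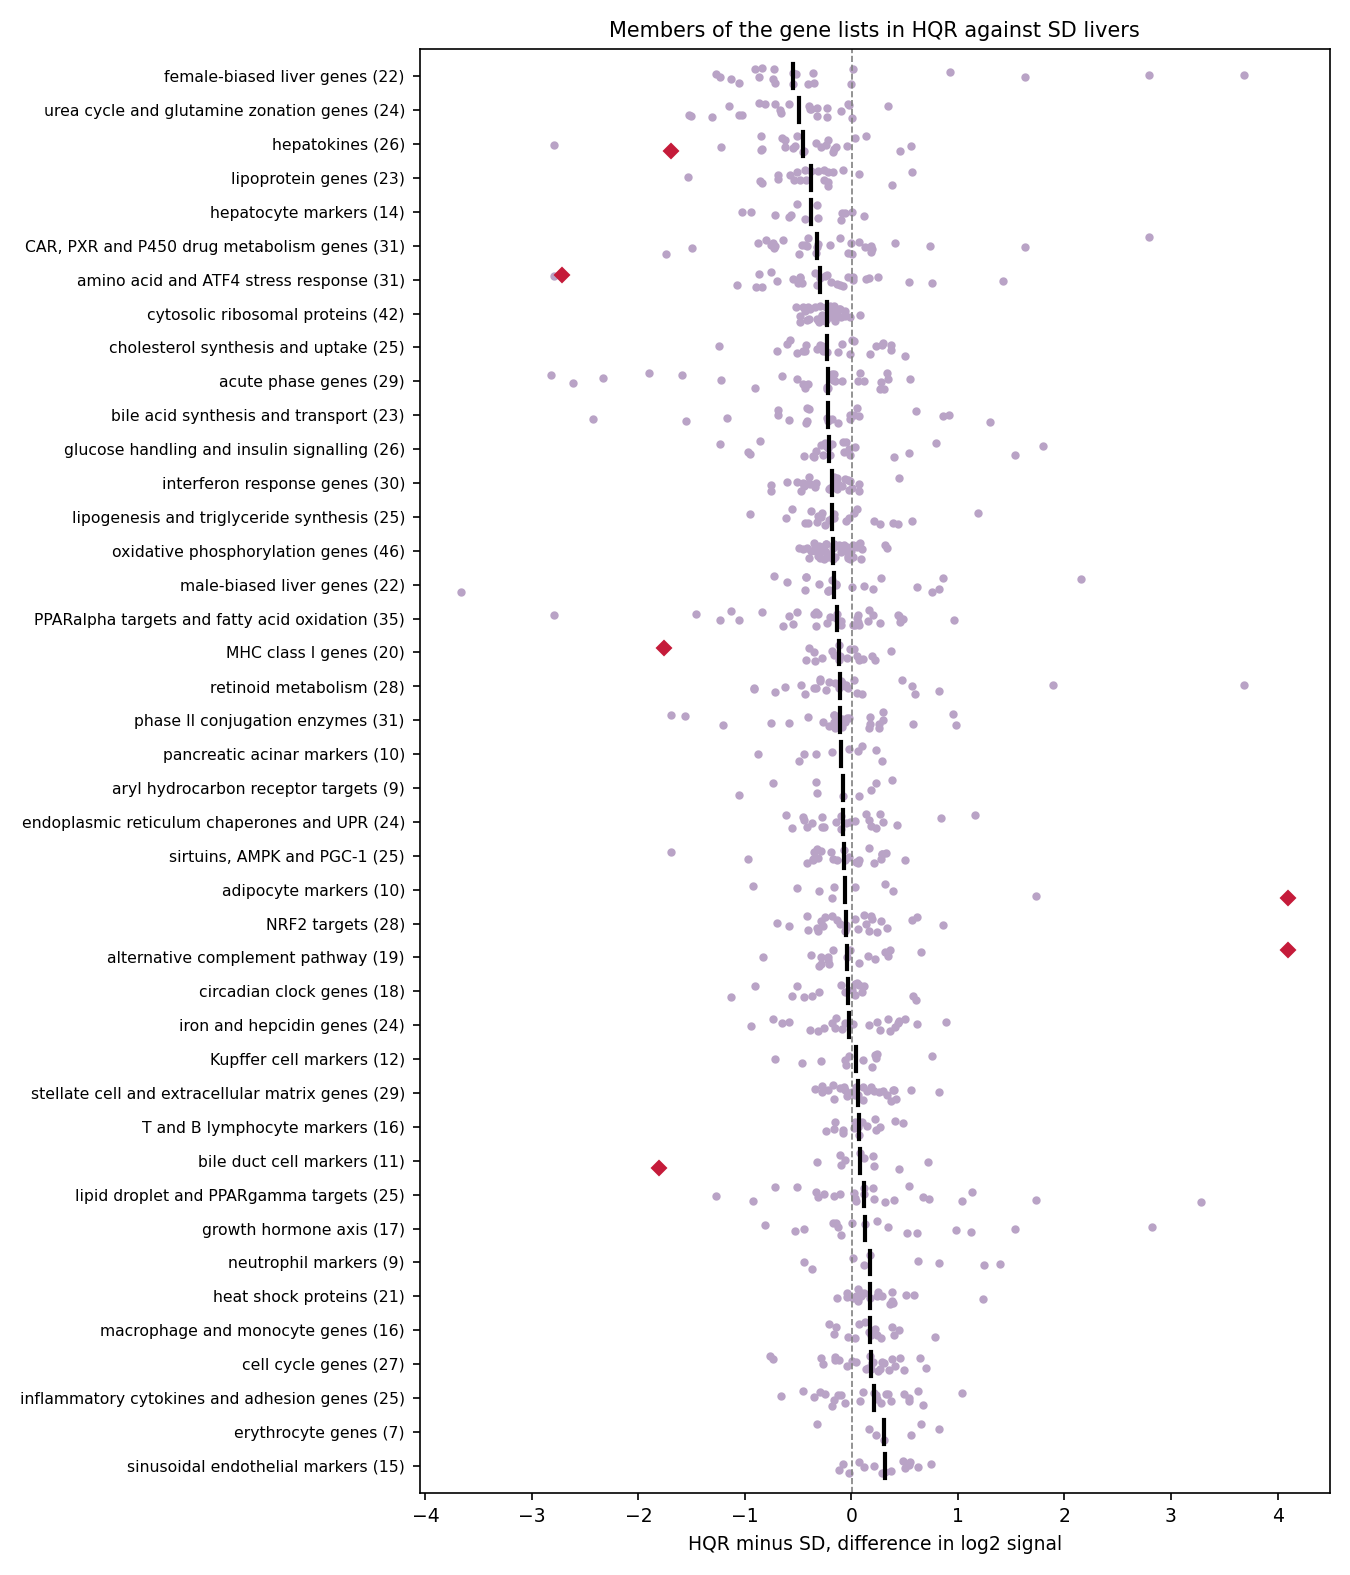
Difference in log2 signal between HQR and SD livers (horizontal axis) for the measured members of 42 gene lists, 1 point a gene, with the number of members in brackets. Black bars are medians, red diamonds the genes with an adjusted p under 0.05 and the dashed line the median of all 21848 genes; medians run from -0.55 (female-biased genes) to 0.31 (sinusoidal endothelial markers).

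Drug metabolism and sex-biased genes gave no call. Of 31 genes of CAR, PXR and P450 drug metabolism, 21 lay below 0 with a median of -0.33. Cyp2c54, a P450 of fatty acids and drugs, was at 1.08 to 2.48 (median 1.67) in HQR livers and 2.56, 3.87, 3.06, 3.08 and 3.33 in SD livers. The groups did not overlap, although HQR replicate 1 and SD replicate 1 were within 0.08 of each other on slide 1, and the difference of -1.50 ± 0.30 had an adjusted p of 0.0561. Of 31 conjugation enzymes and carriers, 21 lay below 0 with a median of -0.11. Gstm2 differed by -0.75 (adjusted p = 0.225), the sulfotransferase Sult1a1 by -1.21 (adjusted p = 0.332) and Gsta2 by 0.98 (adjusted p = 0.37). The 22 measured female-biased liver genes, known to depend on the pattern of growth hormone release, had a median of -0.55, with 17 below 0. Within slides 1, 6 and 9 their median was 0.89, -0.59 and -0.73. Cyp2b9 and Cyp26a1 lay above 0 within all of these slides. Cyp2b9 differed there by 3.42, 0.99 and 3.77 and Cyp26a1 by 4.01, 3.84 and 1.86. Cux2, a transcription factor of female mouse liver, differed by -1.23 (adjusted p = 0.246). Onecut1, a liver transcription factor of the growth hormone list, differed by 1.53 (adjusted p = 0.568).

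Genes of the regulators through which quercetin and resveratrol are often said to act did not pass in HQR against SD either. That comparison differs in fat and in the compounds at once, so it does not test whether the compounds act through them. Only RNA was measured. HQR minus HFD had a median of 0.02 over the sirtuin, AMPK and PGC-1 list. It was -0.03 over NRF2 targets and -0.15 over aryl hydrocarbon receptor targets. Of 25 genes of the sirtuin, AMPK and PGC-1 list none passed (median -0.07). Ppargc1a, the coactivator PGC-1alpha, differed by -0.97 without overlap between HQR and SD (adjusted p = 0.361), though its second probe differed by -0.29. The aryl hydrocarbon receptor Ahr differed by -1.06 (adjusted p = 0.286), and its target Cyp1a1 by 0.38 (adjusted p = 1.00). The NRF2 target Nqo1 differed by -0.33 (adjusted p = 1.00), and none of 28 genes of that list passed (median -0.05). Of 35 PPARalpha targets and genes of fatty acid oxidation none passed (median -0.13, 0.12 in the slide block fit). Acot4, which splits acyl-CoA in peroxisomes, differed by -1.05 (adjusted p = 0.391) and Cpt1a, the gate of mitochondrial oxidation, by -0.84 (adjusted p = 0.671). Acot2, a mitochondrial enzyme of that family, was not well above background on any HQR array and was on 2 of 5 SD arrays, so that no fold is given (adjusted p = 0.447).

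Markers of inflammation and of other cell types showed no call beyond Cfd and Tff3. None of 29 acute phase genes passed (median -0.22, -0.07 in the slide block fit and 0.47 within slide 1). Saa2, serum amyloid A, differed by -2.62 (adjusted p = 0.584) and Mt1, a metallothionein, by -2.82 (adjusted p = 0.435). Mt1 was at 0.21 to 2.11 in HQR livers, and SD replicates 3 and 4 were at 5.99 and 7.54 with the other 3 between 0.76 and 3.12. None of 25 cytokine and adhesion genes passed (median 0.22, 0.01 in the slide block fit); the chemokine Ccl2 differed by 1.04 (adjusted p = 0.445) and Icam1 by -0.66 (adjusted p = 0.399). The 15 sinusoidal endothelial markers, 12 of them above 0, had a median of 0.31 and a mean level of 0.81 to 1.21 in HQR livers, against 0.05 to 1.1 in SD livers; within slide 1 the median was -0.07. Their leading members by p were Oit3 (0.62, adjusted p = 0.761) and Cdh5, the junction protein of blood vessels (0.55, adjusted p = 0.759). Kupffer cell markers had a median of 0.04 over 12 genes, macrophage and monocyte genes of 0.17 over 16, stellate cell and matrix genes of 0.07 over 29, and T and B lymphocyte markers of 0.07 over 16 (-0.18 in the slide block fit). Neutrophil markers had a median of 0.17 over 9 genes, but -0.25 in the slide block fit and -0.93 within slide 9, and S100a8 among them differed by 1.39 (adjusted p = 0.38). Erythrocyte genes had a median of 0.31 over 7, but -1.02 within slide 6, and pancreatic acinar markers of -0.10 over 10, or -0.39 in the slide block fit and 0.56 within slide 1. The slide block median of Kupffer cell markers was -0.07.

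The lists not described above gave no call either. Usp18, which removes the interferon-induced ISG15 tag from proteins, differed by -0.76 (adjusted p = 0.47). Their medians were -0.19 for 30 interferon response genes, of which 26 lay below 0 (0.10 within slide 6 and 0.19 within slide 9). For 46 genes of oxidative phosphorylation the median was -0.18 (-0.04 in the slide block fit and 0.19 within slide 9). The medians were -0.21 for 26 genes of glucose handling, -0.17 for 22 male-biased genes and -0.08 for 9 aryl hydrocarbon receptor targets. They were -0.08 for 24 endoplasmic reticulum chaperones, -0.03 for 18 clock genes, -0.02 for 24 iron genes, 0.13 for 17 growth hormone axis genes, 0.17 for 21 heat shock proteins and 0.18 for 27 cell cycle genes.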

How the data were processed

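Liver RNA was hybridised to 1-colour whole mouse genome arrays, 1 per mouse. The deposited scanner files hold 1 processed signal intensity per spot, which Agilent Feature Extraction 10.5.1.1 had background-subtracted and detrended, per the file headers; the array design is 014868 and positions are build mm9. The authors' deposited value table gives each probe a score on each array, which follows the log2 of the same intensity (correlation 0.9999 to 1) but is scaled to its own spread; it was used as an alternative only.

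The log2 of the processed intensity was taken without outlier spots, repeat spots of a probe were averaged, and the 75th percentile of the 41174 non-control probes of the array was taken off. Probes well above background on at least 5 arrays were kept (32074). Of the 41174 probes, 25263 were named by RefSeq accession, 6233 by symbol and 1603 by synonym, and 8075 kept the array's name; some list symbols were matched through older ones. The probe with the highest mean stood for a gene with several (7086 genes), which left 21848 genes. All 28 arrays were fitted in 1 model with limma 3.58.1 in R 4.3.3 (lmFit, eBayes, 185 genes with a missing value kept), two-sided, with Benjamini-Hochberg adjustment over all genes and a threshold of 0.05. Errors of differences are standard errors and intervals are 95%, both from this fit. For a gene below background on a whole group, the fold is a lower bound: each array's lowest signal well above background, or the gene's own where that is more, stands for the dim group. The fit was tested on simulated data.

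Named genes were taken from a rule: those past the threshold or the 10 smallest p, members of a list past it or its 3 smallest p, all past it in HFD against SD, and a set of 60 genes, of which Pck1 did not pass the filter, 6 of 59 passed in HQR against SD and those of unsteady sign near 0 are not named; a few other genes are not reported here. Named after their values were seen were Abhd5, Atf5, Trib3, Chac1, Glul, Adipoq, Alb, Phlda1, Lgi4, Nrp1 and Slc35f1, and list members given without a p. The comparison, the lists and the named genes were chosen with earlier results of these data known. Alternatives were other scalings, background corrections, filters and probe rules, the value table, array weights, blocks for slide, scan day and replicate number, and fits without single arrays.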

Additional observations from a re-analysis of the deposited data

Results flagged for a closer look

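In the genes named above, 15 of 172 groups of livers held 1 liver far from the rest by Dixon's test, where chance gives about 1 in 20. HQR replicate 4 stood apart in Hao2 (-3.50, the others at -5.85 to -5.44), Hunk (-1.51, the others at -0.77 to -0.43) and Appl1 (-1.13, the others at -0.55 to -0.34). HQR replicate 3 stood apart in Fgf21 (1.46, the others at -2.78 to -1.41) and Slco1a4 (-1.32, the others at 0.37 to 1.22), and HQR replicate 5 in Drc7 (-1.77) and Usp18 (-0.64). HQR replicate 2 was low in Cish (0.30, the others at 4.61 to 6.08) and Acot2 (-6.29), and HQR replicate 1 was high in Nrp1 (3.08, the others at 0.46 to 1.31), Cux2 (-3.07) and Asl (4.73). SD replicate 5 was high in Cish (3.44), and SD replicate 4 in ENSMUST00000005477 (-3.12) and Slc1a2 (3.96). None of the 8 called genes was among them.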

How the results depend on the processing

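All 8 calls kept their direction in all 31 alternatives. The HQR and SD livers do not overlap in these genes, so the fits without single arrays or with array weights could not have turned it. Of the 8, 8 were still called after scaling to the array median, quantile normalization, the strict probe filter, averaging a gene's probes, the deposited value table, robust estimation with an intensity trend, array weights, and slide as a fixed or random block, 7 with no filter, with scan day as a block or with the array median and slide together, and 3 when HQR and SD arrays were fitted alone. After normexp correction 3 remained, and H2-Q1 (adjusted p = 0.57), Rdh16f2 (0.21), Tff3 (0.195), Adam11 (0.0628) and A430085C19 (0.0612) did not; with a minimum fold of 1.5 Cfd alone passed.

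The count of 8 genes in HQR against SD was 17 after quantile normalization, 22 with the strict filter, 14 with the mean of all probes, 13 with the value table, 25 with a trend, 109 with array weights, 1 with a minimum fold of 1.5, 48 with slide as a block, 103 with slide as a random block and 6 to 24 when 1 array was left out, 24 being without SD replicate 1; the cause was not tested. Alternatives chosen after seeing the data gave 59 (quantile normalization with slide as a block), 59 (array median with slide as a block), 38 (normexp with slide as a block) and 0 (slide as a block on HQR and SD arrays alone, where 974 genes had an unadjusted p under 0.05 and few arrays share a slide). With replicate number as a block the count was 13; deviations of same-numbered HQR and SD livers correlated at 0.49, 0.0159, 0.695, 0.0949 and -0.284, so the numbers do not pair the livers, and Asns was then not called (adjusted p = 0.0831). HQR against HFD gave 3 calls with the array median, 2 with normexp, 2 with slide as a block, 1 with the replicate block and 0 to 4 without single HQR arrays.

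Among genes that did not pass, the difference changed sign for Hao2 (-0.11, normexp with slide as a block), Olfr701 (-0.056 with normexp, -0.12 with slide as a block added and -0.027 to 0.43 when 1 array was left out, lowest without HQR replicate 6), Plin2 (-0.75 to 0.043 when 1 array was left out, highest without SD replicate 3, 0.42 with slide as a block on HQR and SD arrays alone, 0.026 with the array median and slide) and Cyp1a1 (-0.081, normexp with slide as a block). Signal near background limits the values of Hao2, Cyp2b10 and Acot2 in HQR and SD livers and of Cyp39a1 in HQR livers. It also limits those of ENSMUST00000005477 in SD livers and of Moxd1 in HFD livers.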
